A study of Mus musculus with 11 samples.

Results

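The motor genes of these cells are described here: the kinesins, the kinesin light chains, the subunits of the dyneins and the subunits of dynactin. They were chosen by name (symbols beginning with Kif, Kifc, Klc, Dync1, Dync2, Dynl or Dctn) among genes with at least 1 splicing event covered by 10 or more reads in every library. Of 63 genes with such a name 48 met the coverage rule, out of 10472 genes that met it in all. They comprise 13 mitotic kinesins, 11 transport kinesins, 5 other kinesins, 3 kinesin light chains, 4 subunits of cytoplasmic dynein 1, 2 of cytoplasmic dynein 2, 4 dynein light chains and 6 dynactin subunits. The 15 genes left out include the neuronal kinesins Kif1a, Kif17, Kif21a and Kif21b and the dynein intermediate chain Dync1i1.

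All groups were N2A (Neuro-2A) cells, a mouse neuroblastoma line, harvested 48 h after transfection of siRNA pools with Lipofectamine RNAiMAX. The controls received non-targeting pools (siNT, 3 libraries, A to C). The other groups, of 2 libraries each (A and B), received pools against Fubp1, against Khsrp, against Khsrp and Fubp1 together (the double knockdown) or against Rbm38. Fubp1 and Khsrp encode related KH-domain proteins that bind single-stranded nucleic acid, and Rbm38 encodes an RRM-type protein that binds RNA. Stranded libraries of polyadenylated RNA were sequenced. All knockdowns were compared with the same siNT libraries. No label says that the libraries of a group came from separate cultures, so p-values measure only the spread between these libraries, which may be technical.

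In the authors' deposited table Fubp1 was 180.07 RPKM in siNT, 27.89 under Fubp1 siRNA and 19.82 in the double knockdown. Khsrp in the authors' deposited table was 47.03 RPKM in siNT, 8.06 under Khsrp siRNA and 6.77 in the double knockdown, and Rbm38 was 34.47 RPKM in siNT and 4.03 under its own siRNA. That table also lists Khsrp lower under Rbm38 siRNA, by -0.70 on the log2 scale (authors' FDR = 0.0243). All 10 sympathoadrenal neuroblastoma markers stood at 1 RPKM or more in every group, while the summed RPKM reached at most 0.35 for 3 epithelial, 2.61 for 5 fibroblast, 1.9 for 3 immune, 1.55 for 3 endothelial and 6.9 for 4 glial markers in the authors' deposited table. The library numbers in the titles were split here into 2 sets, which is a choice. In the first, siNT A, siNT B and both Fubp1 libraries carry numbers 1 to 4. In the second, siNT C and all Khsrp, double and Rbm38 libraries carry numbers 8 to 27. Within the second set a wider gap in the numbers parts its A libraries from its B libraries and siNT C. No control falls among those A libraries, so neither siNT C nor a term for the 2 sets can account for that gap. The labels do not say what the numbers stand for, and siNT C is the only control of the second set. Values within the sets are therefore given beside some of the splicing results, with no test. Median reads per tested event of the motor genes ranged from 114 (double B) to 246.7 (siNT B).

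Kinesins and cytoplasmic dynein are motor proteins that convert the energy of ATP into steps along microtubules. Most kinesins walk towards the plus end, away from the cell centre, and carry vesicles, mitochondria and messenger RNA along axons. Dynein walks towards the minus end and needs the dynactin complex and an adaptor to move far. A separate group of kinesins works in mitosis, where they slide and depolymerise spindle microtubules, align chromosomes and build the midbody. These genes are active in dividing cells, such as those of a tumour line. In neurons several transport motors carry alternative exons that change linkers, tails or binding sites.

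The exons on which the results turn are shown here as GENCODE vM21 transcript sequence, 5′ to 3′, with the exon in capitals and 10 bases of each neighbouring exon in lower case. The first 6 belong to transport kinesins and to dynein, and all of them except the 18-nt microexon changed in at least 1 single knockdown. The last 2, of dynactin and of a mitotic kinesin, changed in the double knockdown.
Kif1b 42-nt exon: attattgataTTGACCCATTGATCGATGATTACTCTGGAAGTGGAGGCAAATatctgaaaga
Kif1b 249-nt exon: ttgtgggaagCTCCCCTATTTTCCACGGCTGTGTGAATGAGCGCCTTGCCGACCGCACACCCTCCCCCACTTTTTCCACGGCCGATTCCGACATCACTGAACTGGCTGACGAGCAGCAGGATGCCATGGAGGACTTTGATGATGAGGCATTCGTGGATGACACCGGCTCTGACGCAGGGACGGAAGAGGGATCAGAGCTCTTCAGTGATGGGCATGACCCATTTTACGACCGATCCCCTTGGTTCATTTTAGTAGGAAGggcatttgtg
Kif1b 18-nt microexon: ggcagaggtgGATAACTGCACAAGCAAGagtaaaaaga
Dync1i2 60-nt exon: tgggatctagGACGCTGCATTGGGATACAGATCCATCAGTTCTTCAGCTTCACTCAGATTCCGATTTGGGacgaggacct
Kif13a 105-nt exon: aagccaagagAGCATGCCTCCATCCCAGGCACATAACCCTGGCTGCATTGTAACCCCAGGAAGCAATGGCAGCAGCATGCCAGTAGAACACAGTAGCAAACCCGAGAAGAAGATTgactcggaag
Kif13a 39-nt exon: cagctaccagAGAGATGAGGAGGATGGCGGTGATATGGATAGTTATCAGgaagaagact
Dctn1 15-nt microexon: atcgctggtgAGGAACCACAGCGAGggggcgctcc
Kif18a 177-nt exon: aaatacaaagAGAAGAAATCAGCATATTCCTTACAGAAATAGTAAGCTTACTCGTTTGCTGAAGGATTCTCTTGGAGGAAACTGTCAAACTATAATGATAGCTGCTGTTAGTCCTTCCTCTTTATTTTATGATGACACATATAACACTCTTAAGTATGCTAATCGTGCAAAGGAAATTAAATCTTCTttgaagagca

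Inclusion is given as PSI (percent spliced in): of the reads that inform an event, the percent that include the exon, intron or extra stretch of exon. Of 1831 motor gene events with enough reads, 343 in 45 genes had a mean PSI from 1 to 99 and were tested: 160 introns, 116 exons, 8 microexons of up to 27 nt, 32 alternative 3′ sites and 27 alternative 5′ sites. An event was called at an adjusted p under 0.05 (limma, Benjamini-Hochberg over all 60137 tested events) and 10 or more points between the group means, in the direction of the fitted odds. Under Fubp1 siRNA 4 motor gene events were called, 2 higher and 2 lower, where 1.42% of all tested events were called (0.394% higher, 1.03% lower). Under Khsrp siRNA 3 were called, 2 higher and 1 lower (0.181% of all tested events, 0.0482% higher and 0.133% lower), and under Rbm38 siRNA 3, all higher (0.374%, with 0.248% higher). In the double knockdown 41 events in 17 genes were called, 14 higher and 27 lower, which is 12% of the motor gene events beside 7.94% of all tested events (2.12% higher, 5.82% lower). Fits without read weights called 0 motor gene events in each of the 3 single knockdowns and 29 in the double (5.27% of all tested events). At an unadjusted limma p under 0.05 these fits gave 57, 27 and 36 of the 343 for Fubp1, Khsrp and Rbm38. Over all 60137 tested events the same counts were 6631, 5277 and 5374. With a term for the library set the double kept 20 of its 41 calls.

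The authors' deposited table marks 19 of the motor gene events under Fubp1 siRNA, 7 under Khsrp siRNA, 54 in the double and 17 under Rbm38 siRNA, and these include 4 of the 4, 3 of the 3, 37 of the 41 and 3 of the 3 called here. That is 5.56, 2.05, 15.8 and 4.97% of the 342 motor gene events with a mark, beside 4.70, 2.36, 13.2 and 2.53% of all tested events that the authors' deposited table marks. No label or header states the criterion behind those marks.

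Transport kinesins. Kif1b, a kinesin-3 motor that carries mitochondria and synaptic vesicle precursors, had 3 exons whose inclusion changed. Its 42-nt exon (coding exon 14 of 49, GRCm38 4:149261160-149261201, minus strand) stood at 37.5, 38.2 and 37.9% in siNT A, B and C. It was 31.1 and 29.0% under Fubp1 siRNA, 19.6 and 19.1% under Khsrp siRNA, 9.4 and 8.7% in the double knockdown and 57.5 and 54.5% under Rbm38 siRNA. No 2 groups overlapped, and the exon moved in opposite directions under Khsrp and Rbm38 siRNA. The difference from siNT was -18.6 points under Khsrp siRNA (log2 odds -1.34 ± 0.13 SE, limma adjusted p = 0.000394), -28.9 points in the double (adjusted p = 1.42e-07) and 18.1 points under Rbm38 siRNA (adjusted p = 0.000178). Under Fubp1 siRNA it was -7.8 points (limma adjusted p = 0.0141), below the 10 points asked for. Against siNT C alone the Khsrp, double and Rbm38 differences were -18.6, -28.9 and 18 points. Without Khsrp A the Khsrp difference was no longer called (limma adjusted p = 0.0591).

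The 249-nt exon of Kif1b (coding exon 25 of 47, GRCm38 4:149220542-149220790) stood at 38.9, 39.8 and 38.1% in siNT and at 18.5 and 21.3% under Fubp1 siRNA. It was 33.3 and 33.8% under Khsrp siRNA, 13.8 and 13.7% in the double and 49.4 and 45.5% under Rbm38 siRNA. The Fubp1 libraries lay far below every siNT library, while the Khsrp libraries lay only a few points below. The difference was -19.0 points under Fubp1 siRNA (log2 odds -1.38 ± 0.12 SE, limma adjusted p = 2.44e-05) and -25.2 points in the double (adjusted p = 1.66e-06). Under Khsrp siRNA it was -5.4 points (limma adjusted p = 0.283) and under Rbm38 siRNA 8.6 points (adjusted p = 0.0662). The 18-nt microexon of Kif1b (coding exon 10 of 49, GRCm38 4:149265345-149265362) was at 95.8, 96.8 and 96.6% in siNT and at 76.6 and 77.8% in the double, a difference of -19.2 points (limma adjusted p = 6.27e-06). In the single knockdowns this microexon stayed between 90.8 and 98.3%. In the authors' deposited table the level of Kif1b differed from siNT at no FDR under 0.05 in any knockdown.

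**Figure D1:**
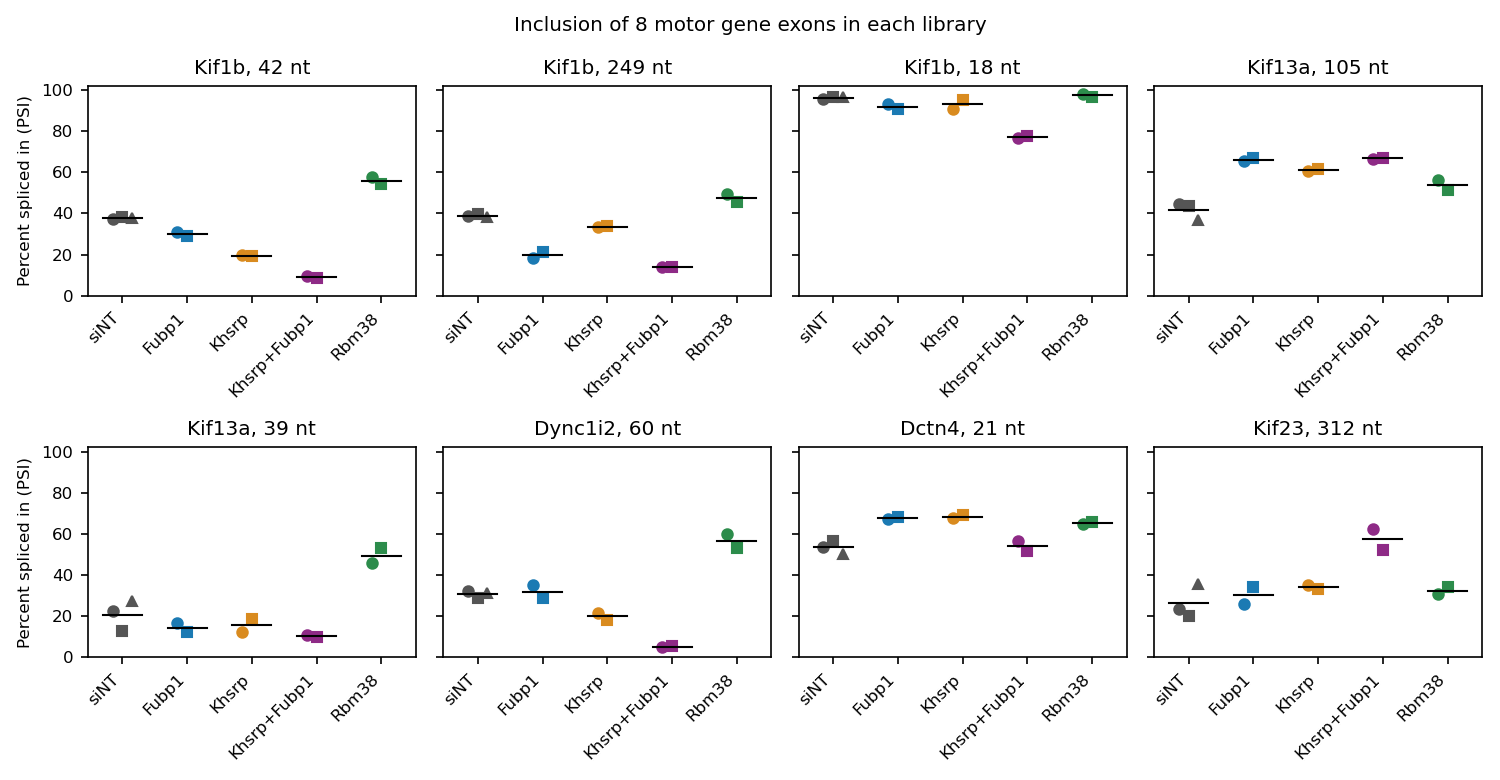
Percent spliced in (y axis, percent) of 8 motor gene exons in each library, by group (x axis). Circles, squares and triangles are libraries A, B and C and the black line is the group mean. The Kif1b 42-nt exon falls to 9.4 and 8.7% in the double knockdown and rises to 57.5 and 54.5% under Rbm38 siRNA, and the Dync1i2 60-nt exon moves in the same 2 directions.

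Kif13a, a kinesin-3 motor of endosomes and melanosomes, had an exon of 105 nt (coding exon 14 of 16 of its matched transcript, GRCm38 13:46760663-46760767, minus strand) that rose in 3 knockdowns. It was 44.7, 43.7 and 36.9% in siNT, 65.6 and 66.8% under Fubp1 siRNA, 60.6 and 61.4% under Khsrp siRNA, 66.7 and 66.9% in the double and 56.2 and 51.6% under Rbm38 siRNA. All knockdown libraries lay above all siNT libraries. The differences were 24.4 points under Fubp1 siRNA (limma adjusted p = 6.15e-05), 19.2 under Khsrp siRNA (adjusted p = 0.0283) and 25.0 in the double (adjusted p = 5.31e-05), with 12.1 under Rbm38 siRNA (adjusted p = 0.131). The Khsrp call was lost without any of 6 single libraries (siNT A or B, Khsrp A or B, double A or B), with an adjusted p of up to 0.282, and with the library set term (limma adjusted p = 0.1). A different Kif13a exon, of 39 nt (GRCm38 13:46780626-46780664), rose under Rbm38 siRNA, from 22.4, 12.5 and 27.4% in siNT to 45.8 and 53.0%. That difference was 28.6 points (limma adjusted p = 0.00957) and 22.0 against siNT C alone. It was lost without Rbm38 B (adjusted p = 0.115) and with the library set term (adjusted p = 0.489).

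The other events of transport kinesins called in the double knockdown lay in Kif1c, Kif13b and Kifc3. A 22-nt microexon of Kif1c, a motor of vesicles and mRNA, stood at 40.1, 38.7 and 39.6% in siNT and at 13.2 and 12.3% in the double (limma adjusted p = 0.00164), on 17 to 67 reads per library. It was also below siNT in all single knockdown libraries, between 17.3 and 32.1%, with no call there. Exons of Kif13b (68 nt) and of the minus-end kinesin Kifc3 (149 nt) were nearly absent in siNT, with at most 2.5 and 0.6%, and reached 11.9 and 14.6% and 21.4 and 8.2% in the double (limma adjusted p = 0.0152 and 0.000974). Without double A the Kifc3 exon was not called (limma adjusted p = 0.0591), nor was the Kif13b exon without siNT B or either double library (adjusted p of up to 0.106). With the library set term none of the 3 was called (limma adjusted p = 0.0816 for Kif1c, 0.306 for Kif13b and 0.146 for Kifc3).

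Dynein, dynactin and kinesin light chains. Dync1i2 encodes the intermediate chain of dynein 1 that binds dynactin and is known for forms made by alternative splicing. Its 60-nt exon (coding exon 5 of 17, GRCm38 2:71233649-71233708, plus strand) was read deeply, by 1795 to 7409 reads per library. It stood at 32.2, 28.6 and 31.0% in siNT, 35.0 and 28.9% under Fubp1 siRNA, 21.4 and 18.2% under Khsrp siRNA, 4.9 and 5.3% in the double and 59.9 and 53.0% under Rbm38 siRNA. Fubp1 and siNT libraries overlapped, and each of the other groups stood apart. The difference was -25.5 points in the double (log2 odds -3.02 ± 0.36 SE, limma adjusted p = 3.95e-05) and 25.9 points under Rbm38 siRNA (log2 odds 1.59 ± 0.13 SE, adjusted p = 4.11e-05). Under Khsrp siRNA it was -10.8 points (limma adjusted p = 0.083) and under Fubp1 siRNA 1.3 points (adjusted p = 0.681). Against siNT C alone the double and Rbm38 differences were -25.9 and 25.5 points.

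Dctn4 encodes a subunit of the pointed-end complex of dynactin, and its 21-nt microexon (coding exon 6 of 14) rose under Fubp1 and under Khsrp siRNA and was not called in the double. It was 53.6, 56.6 and 50.2% in siNT, 67.2 and 68.3% under Fubp1 siRNA, 67.5 and 69.1% under Khsrp siRNA, 56.7 and 51.8% in the double and 64.9 and 65.6% under Rbm38 siRNA. The double overlapped siNT and all single knockdown libraries lay above both. The difference was 14.3 points under Fubp1 siRNA (limma adjusted p = 0.00528) and 14.8 under Khsrp siRNA (adjusted p = 0.033), against 0.8 in the double (adjusted p = 0.907) and 11.8 under Rbm38 siRNA (adjusted p = 0.0536). The Fubp1 call was lost without either Fubp1 library and the Khsrp call without siNT A, either Fubp1 library or either Khsrp library, with adjusted p of up to 0.0577 and 0.263, and the Khsrp call also with the library set term (limma adjusted p = 0.1).

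Dctn1 encodes p150Glued, the dynactin subunit that binds microtubules and the dynein intermediate chain. Its 15-nt microexon (coding exon 27 of 32, GRCm38 6:83197319-83197333) was 71.2, 65.7 and 47.3% in siNT and 34.5 and 41.9% in the double (-23.2 points, limma adjusted p = 0.00332), with 43.6 and 40.0% under Khsrp siRNA. The siNT libraries differed among themselves by more than the double differed from siNT C, -9.1 points, and the call was lost with the library set term (limma adjusted p = 0.251) and without double A (adjusted p = 0.214). The 1211-nt intron next to this microexon was retained at 2.9, 6.2 and 9.7% in siNT and 26.0 and 37.5% in the double (limma adjusted p = 0.0116), and shares reads with the microexon. It was lost without siNT B or double B (adjusted p of up to 0.0756) and with the library set term (adjusted p = 0.332). For Dctn2, the dynamitin subunit, use of a site that adds 3 nt rose from 17.4, 15 and 17.7% to 28.1 and 31.9% (limma adjusted p = 0.00274, and 0.155 with the library set term).

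Dync2h1 encodes the heavy chain of dynein 2, the motor that returns cargo along cilia, and 5 of its exons were skipped in the double knockdown. These are exons 27 and 79 to 82 of 89 in its matched transcript. A 76-nt exon among them (exon 80, GRCm38 9:6996864-6996939) fell from 100.0% in all 3 siNT libraries to 33.2 and 49.9% (-58.5 points, limma adjusted p = 0.00104). The other 4 fell by between 11.9 and 21.2 points. Reads were few, 10 to 65 per library for the 76-nt exon, so the size of these differences is uncertain, and with the library set term none of the 5 was called (limma adjusted p from 0.0733 to 0.319). The exons of 133, 209 and 105 nt were also lost without siNT A, siNT B or either double library, 2 of them without siNT C and 1 without Khsrp B (limma adjusted p of up to 0.135). The exons 79 to 82 adjoin each other and share junction reads.

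Klc1, a kinesin light chain that links kinesin-1 to cargo, had 3 events called in the double. These events adjoin each other and share reads, so they are not separate measurements. An alternative 5′ site that adds 27 nt fell from 75.0, 75.6 and 84.3% in siNT to 65.5 and 62.1% under Fubp1 siRNA (-14.5 points, limma adjusted p = 0.0275) and to 57.2 and 56.3% in the double (-21.6 points, adjusted p = 0.00125). The Fubp1 call was lost without either Fubp1 library (limma adjusted p of up to 0.199). A 6061-nt intron was retained at 46.8, 26.9 and 39.5% in siNT and 65.7 and 68.6% in the double (limma adjusted p = 0.00544), which was lost without double A (adjusted p = 0.076) and with the library set term (adjusted p = 0.0965). A 131-nt exon (coding exon 14 of 16) went from 55.3, 62.9 and 47.4% to 69.9 and 73.8% (16.6 points, limma adjusted p = 0.0332), lost without siNT A, siNT C or either double library (adjusted p of up to 0.202).

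Mitotic kinesins. In the double knockdown 20 of 110 tested events of mitotic kinesins were called, 7 higher and 13 lower, in 5 of 13 genes (Kif15, Kif18a, Kif20b, Kif23 and Kifc5b). Of the transport kinesins, 7 of 83 events in 5 genes were called, 3 higher and 4 lower. Over all tested events 7.94% were called, 2.12% higher and 5.82% lower. The median difference was -1.02 points for the 110 events and -0.53 for the 83, beside -0.61 for all 343 motor gene events. In the single knockdowns limma called 0 of the 110 events, where 1.42, 0.181 and 0.374% of all tested events were called for Fubp1, Khsrp and Rbm38. At an unadjusted limma p under 0.05 there were 27, 13 and 10 of the 110, beside 9402, 6932 and 7245 of all 60137 tested events. The authors' deposited table marks 4 mitotic kinesin events under Fubp1 siRNA (in Kif15, Kif20b and Kif4) and 0 under Khsrp siRNA. It marks 20 in the double (in Kif15, Kif18a, Kif20b and Kif23) and 6 under Rbm38 siRNA, all in Kif20a. Transport kinesin events with a mark there number 7, 3, 11 and 6 for Fubp1, Khsrp, the double and Rbm38. Of all tested events that table marks 4.70, 2.36, 13.2 and 2.53% in the same order. Whether the 2 classes differ was not tested.

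Kif18a, the plus-end motor that limits chromosome oscillations at metaphase, lost 5 of its exons in part. Its 177-nt exon (coding exon 7 of 17, GRCm38 2:109296620-109296796, plus strand) was at 100.0, 98.1 and 100.0% in siNT and at 36.3 and 34.6% in the double. It was 96.5 and 91.9% under Fubp1 siRNA, 98.8 and 97.8% under Khsrp siRNA and 100.0 and 100.0% under Rbm38 siRNA. The 198-nt exon before it (coding exon 6, GRCm38 2:109294939-109295136) was at 44.9 and 37.1% in the double, against 99.5% or more in siNT. The differences were -63.9 points (limma adjusted p = 7.8e-06) and -58.9 points (adjusted p = 2.52e-05), the largest among the 41. Exons of 163 nt (73.3 and 74.7%), 113 nt (79.7 and 76.4%) and 236 nt (78.6 and 77.3%) also fell in the double, each from at least 97.8% in siNT, with limma adjusted p of 2.64e-05, 0.000243 and 8.35e-05. All 5 exons kept their call without any single library and with the library set term (adjusted p of up to 0.0419 there). A 1483-nt intron of Kif18a also passed the threshold, at 18.8% in double A but 4.0% in double B, and was lost without double A (limma adjusted p = 0.442). Between the skipped exons, the 75-nt exon stayed at 98.4% or more in all libraries. The 198-nt and 177-nt exons adjoin each other, as do the 113-nt and 163-nt exons. Exons that adjoin share junction reads, so the 5 losses are not separate measurements. In the authors' deposited table Kif18a stood at 27.67 RPKM in siNT and 10.7 in the double.

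**Figure D2:**
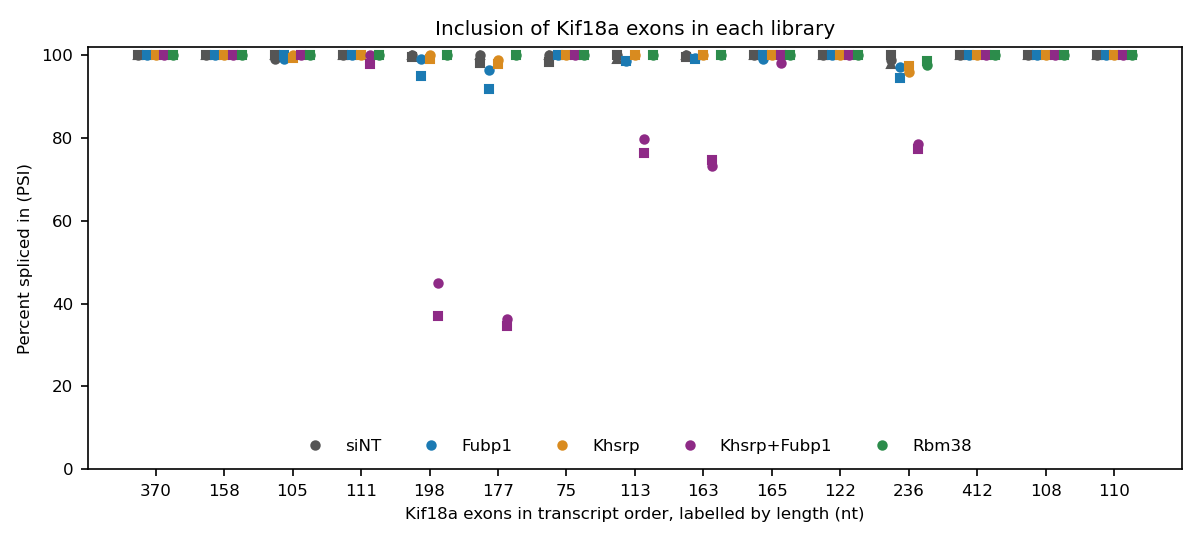
Percent spliced in (y axis, percent) of the Kif18a exons with enough reads, in transcript order and labelled by length (x axis), in each library. Circles, squares and triangles are libraries A, B and C. An exon of 157 nt with at most 1.9% in any library is not drawn. In the double knockdown the 198-nt and 177-nt exons lie below 45%, and the 113-nt, 163-nt and 236-nt exons between 73.3 and 79.7%.

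Kif23, the kinesin of the central spindle and midbody, had 3 exons that moved. As background, the CHO1 form of this protein differs from the MKLP1 form by an inserted region that binds actin. The 312-nt exon (coding exon 18 of 23, GRCm38 9:61923905-61924216) rose from 23.3, 19.9 and 35.5% in siNT to 62.5 and 52.2% in the double, while the single knockdowns lay between 26.0 and 35.0%. The difference was 31.1 points (log2 odds 2.05 ± 0.29 SE, limma adjusted p = 0.00018) and 21.9 points against siNT C alone. The 228-nt exon that follows it fell from 96.8, 98.0 and 93.9% to 82.4 and 83.2% (limma adjusted p = 0.000301). The 312-nt and 228-nt exons adjoin each other and share junction reads, so they are not separate measurements. A 42-nt exon (coding exon 8 of 16) fell from 56.1, 47.9 and 40.4% to 30.5 and 35.0% (limma adjusted p = 0.0221), and was lost without either double library (adjusted p of up to 0.267) and with the library set term (adjusted p = 0.36).

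Kif15, a spindle motor that supports Kif11, had 6 events called in the double. The 77-nt exon (coding exon 4 of 35) fell from 88.5, 82.1 and 83.8% to 63.2 and 64.8% (limma adjusted p = 0.0014). The 98-nt exon (coding exon 6) fell from 81.0, 87.2 and 81.2% to 58.4 and 52.7% (limma adjusted p = 0.00449, and 0.0631 with the library set term). The adjoining 3862-nt intron rose from 6.7, 1.9 and 4.4% to 28.3 and 34.5% (limma adjusted p = 0.000507), and shares reads with that exon. The 178-nt exon fell from at least 99.1% to 90.8 and 84.2% (limma adjusted p = 8.96e-05, but under 10 points, -8.5, without double B), and a 142-nt exon rose from at most 1.9% to 20 and 14.2% (adjusted p = 0.000729). The sixth, an alternative 3′ site that adds 84 nt, was 11.8 and 28.6% in the double and passed only just (limma adjusted p = 0.0499), being lost without any of 7 libraries, double B among them (adjusted p of up to 0.617).

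Kif20b, a kinesin of cytokinesis, had 3 exons that fell in the double. The 156-nt exon (coding exon 25 of 32) fell from at least 99.7% to 82.1 and 75.3%, the 198-nt exon (coding exon 28) from at least 97.4% to 78.3 and 81.8%, and the 120-nt exon from at least 99.6% to 85.7 and 92.9%. Their limma adjusted p were 4.48e-05, 2.52e-05 and 0.00328. Without double A the 120-nt exon differed by -6.9 points and was not called. With the library set term the 198-nt exon kept its call (limma adjusted p = 0.00737) and the others did not (0.0842 and 0.216). Kifc5b, a minus-end kinesin almost identical to Kifc1, so that its reads are uncertain, had a 282-nt exon at 39.8, 56.6 and 69.5% in siNT and 74.4 and 80.1% in the double (limma adjusted p = 0.028, and 7.7 points against siNT C alone). An alternative 5′ site of 13 nt of the same gene was 25.0 and 11.4% in the double (limma adjusted p = 0.0477). The 282-nt exon was lost without siNT A or either double library (limma adjusted p of up to 0.17). The alternative site was lost without siNT A, siNT B, double A or any 1 of the Fubp1, Khsrp and Rbm38 libraries (adjusted p of up to 0.597).

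Among the other kinesins, Kif2a and Kif24 each had 1 event called in the double. Kif2a depolymerises microtubules at spindle poles and in axons. Its 68-nt exon (coding exon 16 of 20) fell from 96.8, 98.6 and 97.8% to 89.9 and 82.5% (limma adjusted p = 0.000123) and was at 93.0 and 92.2% under Fubp1 siRNA, a difference of -5.2 points there. Without double B the difference in the double fell below 10 points (-7.9). Kif24, which restrains cilia, had an 88-nt exon that fell from at least 96.5% to 84.6 and 86.4% (limma adjusted p = 0.0221, and 0.188 with the library set term), lost without siNT B or either double library (adjusted p of up to 0.113).

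**Figure D3:**
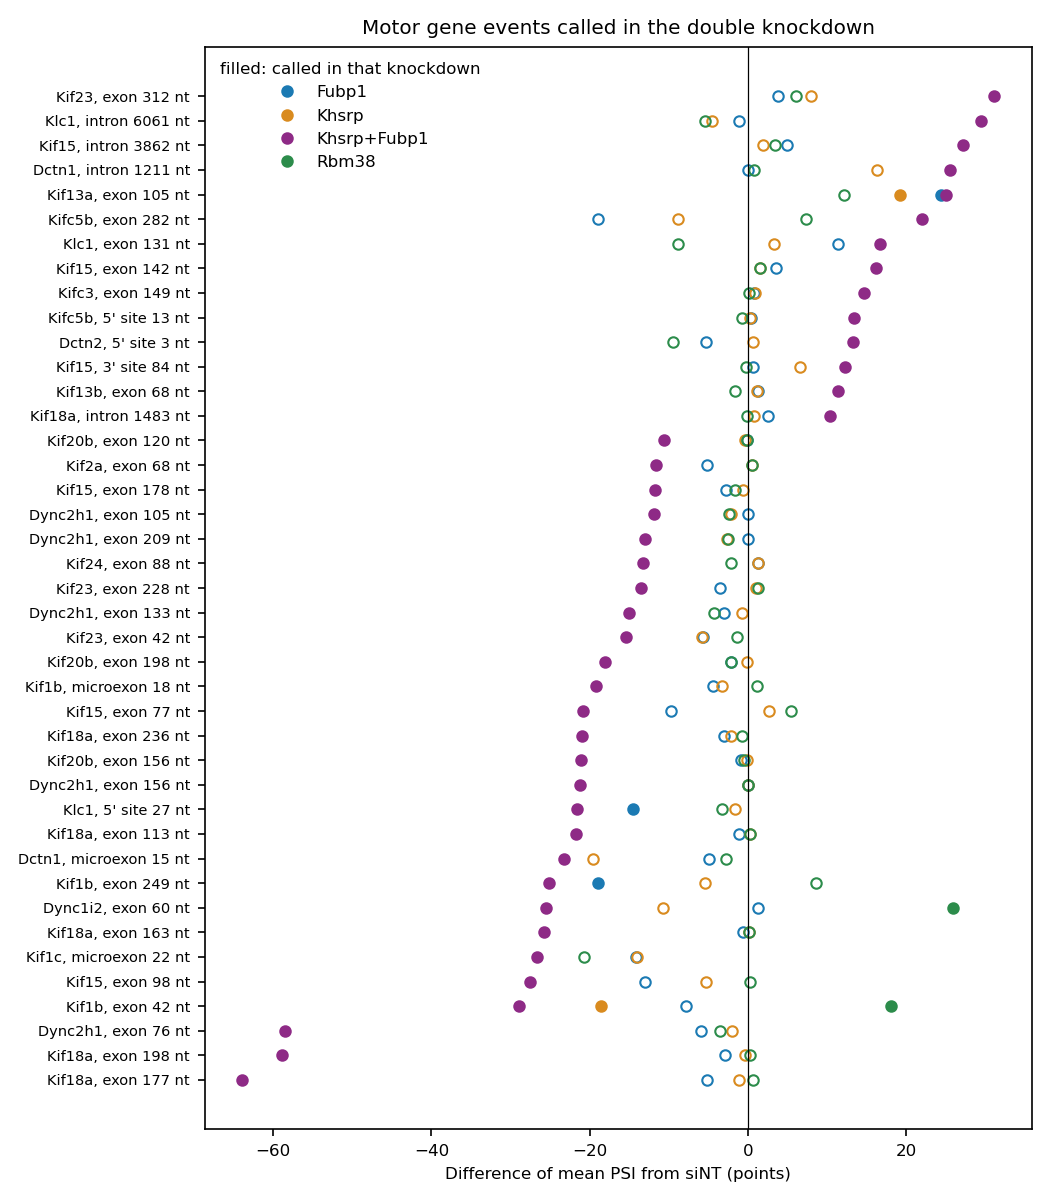
Difference of mean PSI from siNT in points (x axis) for the 41 motor gene events called in the double knockdown (y axis, by gene, kind and length), in each of the 4 knockdowns. Filled points were called in that knockdown and open points were not. The events run from -63.9 points (Kif18a, 177 nt) to 31.1 points (Kif23, 312 nt), and the single knockdowns were called at the Kif1b 42-nt and 249-nt exons, the Kif13a 105-nt exon, the Klc1 27-nt site and the Dync1i2 60-nt exon.

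The double knockdown was also compared with each single knockdown. Against Fubp1 siRNA alone 23 motor gene events differed, 6 higher and 17 lower (4.85% of all tested events, 1.27% higher and 3.59% lower), and against Khsrp siRNA alone 28, 7 higher and 21 lower (5.33%, with 1.17% higher and 4.16% lower). For the Dync1i2 60-nt exon the double differed by -26.8 points from Fubp1 siRNA (limma adjusted p = 7.58e-05) and by -14.7 from Khsrp siRNA (adjusted p = 0.0017). The Kif1b 42-nt exon differed by -21.0 points from Fubp1 siRNA (limma adjusted p = 4.33e-06) and by -10.3 from Khsrp siRNA (adjusted p = 0.000721). The latter was lost without double B, where the difference lay at the limit of 10 points. The first comparison spans the library sets, and 2 of its 23 calls remained with the library set term. The second lies within 1 set, so the term cannot change its estimates. That all 28 of its calls remained is therefore no test of the library set. Without Khsrp A 13 events were called against Khsrp siRNA, and without Fubp1 A or Fubp1 B 14 against Fubp1 siRNA.

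A departure of the double from the sum of the 2 single effects, on the log2 odds scale, was called for 2 motor gene events, both lower (0.469% of all tested events, 0.0964% higher and 0.372% lower). The Dctn4 21-nt microexon departed by -28.3 points (log2 odds -1.67 ± 0.23 SE, limma adjusted p = 0.00519) and the Dync1i2 60-nt exon by -16.0 points (log2 odds -2.35 ± 0.40 SE, adjusted p = 0.0174). Both calls were lost without Khsrp A, and that of Dync1i2 also without either double library (limma adjusted p of up to 0.0544 for Dctn4 and 0.17 for Dync1i2). With no filter on mean PSI both were lost, and without read weights that of Dctn4 was lost. For the Kif18a 177-nt exon the departure was -57.6 points (limma adjusted p = 0.0632, and 0.0451 with the library set term, which passes), and for the Kif1b 42-nt and 249-nt exons -2.4 and -0.8 points (adjusted p = 0.182 and 0.701).

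Reading frame. Of the 124 tested exons and microexons of motor genes 58 had a length divisible by 3 (46.8%). All 3 called under Fubp1, all 3 under Khsrp and all 3 under Rbm38 siRNA were of that kind, counting some exons in more than 1 knockdown. In the double it was 17 of 33 (51.5%). The 177-nt and 198-nt exons of Kif18a are divisible by 3 and its 163-nt, 113-nt and 236-nt exons are not. Each length was taken alone. The 113-nt and 163-nt exons adjoin each other, and neither length alone gives the frame if both are skipped together, which was not tested. Of 36 exons called in any comparison 31 were matched to the annotation and 29 were wholly coding.

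Levels of the motor genes. Levels are RPKM (reads per kilobase of transcript, scaled to library size), 1 value per group, with fold changes and FDR by the authors. They carry no error or number of replicates, and the authors' log2 fold changes are not the log2 ratios of the group RPKM. The median absolute difference over the 48 genes was 0.04 to 0.08. The largest was 0.38 under Fubp1 siRNA and 0.49 in the double, both for Kif15. It was 0.37 for Kif1b under Khsrp siRNA and 0.41 for Kif24 under Rbm38 siRNA. In the authors' deposited table Kif15 was 31.14 RPKM in siNT, 23.25 under Fubp1 siRNA and 26.11 in the double. Kif24 was 6.91 RPKM in siNT and 6.22 under Rbm38 siRNA there. With 1 siNT value per gene, levels could not be compared within the library sets. At a whole-culture level fewer cells of a kind and less RNA per cell cannot be told apart. Under Fubp1 siRNA 12 of 13 mitotic kinesins were lower in the authors' deposited table at an FDR under 0.05 and none higher, where 10.5% of all genes tested were lower and 12.0% higher. Their median log2 fold change in the authors' deposited table was -0.59, beside 0.0 over all genes. Of the transport kinesins 5 were higher and 1 lower in that table.

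Under Fubp1 siRNA the authors' deposited table gives the largest falls among mitotic kinesins for Kif14, a kinesin of the midbody (-0.86), Kif15 (-0.80), Kif22, which binds chromosomes (-0.79), Kif23 (-0.67), Kif18a (-0.64) and Kif20b (-0.64). Kif11, the motor that pushes spindle poles apart, was -0.45 in the authors' deposited table (64.74 to 48.4 RPKM, FDR = 0.00312), and Kif18b, which binds growing microtubule ends, was -0.32 with an FDR of 0.131. Among the transport kinesins Kif13a in the authors' deposited table rose by 1.00 (17.0 to 34.64 RPKM, FDR = 2.74e-06), Kif1c by 0.61, the neuronal kinesin-1 Kif5a by 0.60, Kif3c by 0.51 and the kinesin-2 subunit Kif3a by 0.45. In that table Kifc3 fell by 0.89. The light chain Klc4 in the authors' deposited table rose by 1.54 (1.84 to 5.14 RPKM), the dynein heavy chain Dync1h1 by 0.64 and Kif7, a cilium kinesin, by 0.52. In the same table the light chain Dynll1 fell by 1.27 (120.54 to 52.5 RPKM) and the light intermediate chain Dync1li1 by 0.45.

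Khsrp siRNA gave 3 higher and 4 lower motor genes in the authors' deposited table, where 3.82% of all genes were higher and 4.34% lower. No mitotic kinesin passed in the authors' deposited table. Kif5b, the ubiquitous kinesin-1 heavy chain, fell by 1.06 in the authors' deposited table, from 77.62 to 33.9 RPKM (FDR = 4.86e-12). Kifc3 fell by 0.87, Kif3c by 0.63 and the dynein light chain Dynlt3 by 0.60 in the authors' deposited table. Klc4 rose by 0.93, Kif1c by 0.62 and Kif7 by 0.53 in the authors' deposited table.

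In the double knockdown 5 motor genes were higher and 14 lower in the authors' deposited table, where 13.2% of all genes were higher and 13.7% lower. Kifc3 fell by 1.94 (11.98 to 3.51 RPKM), Dync2h1 by 1.70 (3.88 to 1.04 RPKM), Kif2a by 1.18 and Kif5b by 1.00 in the authors' deposited table. Of the mitotic kinesins Kif18a (-1.35), Kif15 (-0.74), Kif14 (-0.53), Kif20b (-0.41) and Kif23 (-0.36) fell in the authors' deposited table, and the other 8 did not pass, with Kif11 at -0.05 and Kif22 at -0.09. Kif24 (-0.72), Dync1i2 (-0.68), Kif13b (-0.62), Dync2li1 (-0.45) and Kif3b (-0.41) also fell in the authors' deposited table. Klc4 (1.33), Kif1c (1.12), Kif7 (0.51), Dctn2 (0.51) and Dync1li2 (0.32) rose in the authors' deposited table.

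Rbm38 siRNA was followed by 2 higher and 7 lower motor genes in the authors' deposited table, where 7.96% of all genes were higher and 7.02% lower. Kif11 (-0.58), Kif18b (-0.58), Kif23 (-0.55), Kif15 (-0.50) and Kif14 (-0.42) fell among the mitotic kinesins, and Kif24 (-0.56) and Kif2a (-0.51) among the others, in the authors' deposited table. Kif5a rose by 0.70 (10.15 to 16.42 RPKM) and Kif3b by 0.41 in the authors' deposited table.

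**Figure D4:**
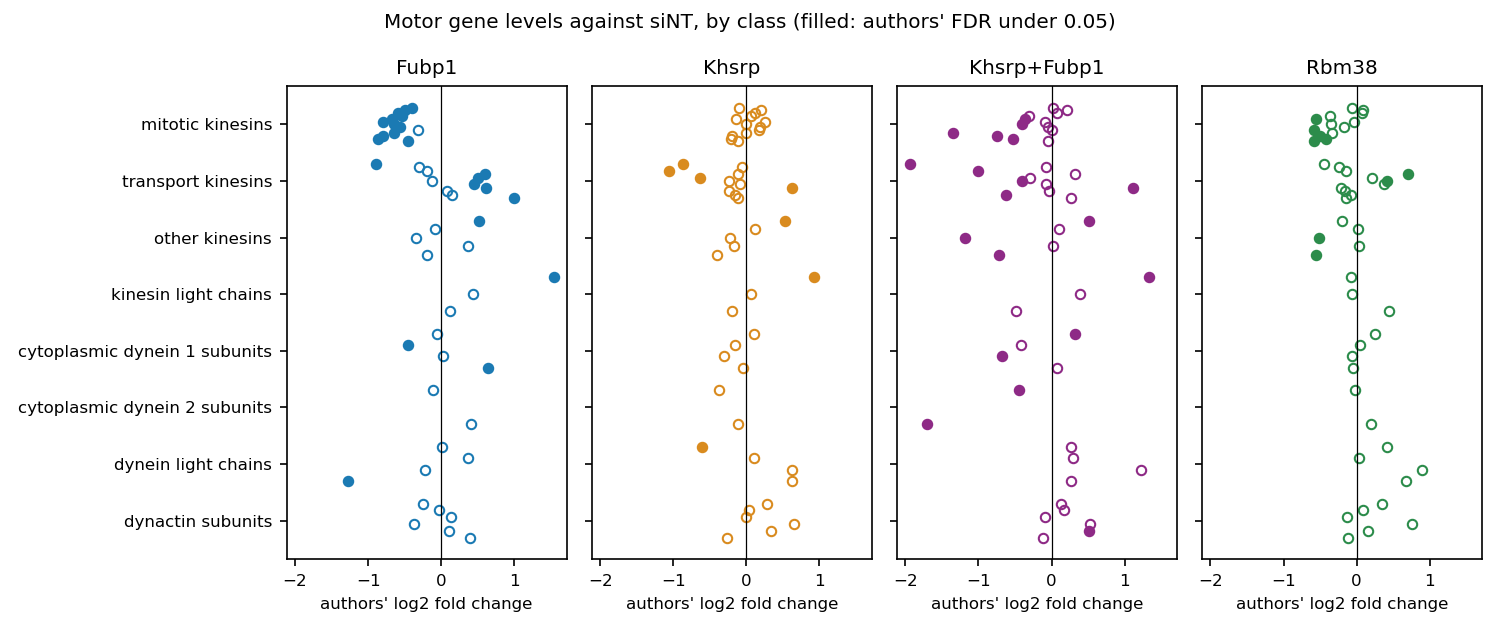
The authors' log2 fold change against siNT (x axis) of the 48 motor genes, by class (y axis), in each knockdown. Filled points have an authors' FDR under 0.05. Under Fubp1 siRNA 12 of the 13 mitotic kinesins lie below 0 and are filled, and in the double Kifc3 (-1.94) and Dync2h1 (-1.70) lie farthest to the left.

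Other genes of both pathways were listed by function. Of 26 measured partners of mitotic kinesins, which include spindle checkpoint, passenger complex and midbody genes, 21 were lower and 1 higher under Fubp1 siRNA in the authors' deposited table (all genes: 10.5% lower, 12.0% higher). Zwilch (-1.30), Bub1 (-1.14) and Birc5 (-1.02) fell most, and the spindle pole protein Numa1 rose (0.77), in the authors' deposited table. In the double 7 partners were lower and 1 higher there (all genes: 13.7% lower, 13.2% higher), with Bub1 at -1.38 and the cytokinesis factor Ect2 at -0.99, and under Rbm38 siRNA 5 were lower and 1 higher (all genes: 7.02% lower, 7.96% higher). Of the 37 tested adaptors and regulators of transport motors 4 were lower and 4 higher under Fubp1 siRNA in the authors' deposited table, 10.8% each way and near the shares over all genes, with the actin-capping subunit Capza1, which is also a dynactin component, at -1.64. In the double 10 were lower and 5 higher in the authors' deposited table (all genes: 13.7% lower, 13.2% higher). Spag9, a scaffold of kinesin-1 and dynein, was at -1.37, the kinesin-2 accessory Kifap3 at -1.03 and the dynein adaptor Hook2 at 1.16 in the authors' deposited table. Under Rbm38 siRNA 6 were lower and 1 higher there (all genes: 7.02% lower, 7.96% higher), with the dynein regulator Ndel1 at -1.20.

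Because 12 of 13 mitotic kinesins moved one way under Fubp1 siRNA, the 250 bases before each annotated start were searched on both strands for TTTGAA or TTTAAA (the letters of the cell cycle homology region) and for CCAAT, with overlaps allowed. RefSeq promoters (GRCm38.p6) were found for 12 of the 13 genes, 1 each. One or both of the first 2 letter strings were in 5 of 12 promoters of mitotic kinesins (41.7%), in 0 of 8 promoters of 7 transport kinesins and in 25.2% of 32851 promoters of all genes. CCAAT was in 8 of 12 (66.7%), 4 of 8 (50.0%) and 33.8%. Matches on either strand are in capitals in these 2 promoters of mitotic kinesins, shown as examples with TTTGAA and CCAAT. The promoter of Kif14 also holds both, with TTTAAA as well. A match is a description of the letters and not a binding site.
Kif11, GRCm38.p6 19:37376132-37376381, plus strand: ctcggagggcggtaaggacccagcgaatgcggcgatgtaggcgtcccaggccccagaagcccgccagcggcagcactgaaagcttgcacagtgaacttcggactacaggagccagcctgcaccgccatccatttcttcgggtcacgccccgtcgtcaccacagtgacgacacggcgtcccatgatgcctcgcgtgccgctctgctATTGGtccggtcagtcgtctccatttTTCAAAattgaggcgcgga
Kif22, GRCm38.p6 7:127042421-127042670, minus strand: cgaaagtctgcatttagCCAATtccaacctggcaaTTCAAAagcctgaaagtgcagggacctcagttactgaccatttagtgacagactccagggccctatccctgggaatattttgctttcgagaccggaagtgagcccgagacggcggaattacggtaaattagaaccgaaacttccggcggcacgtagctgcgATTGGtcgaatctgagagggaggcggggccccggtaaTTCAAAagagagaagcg

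Splicing and level of the same genes. Of the 17 genes with a called event in the double, Kif18a, Kif15, Kif20b, Kif23, Kif2a, Kif24, Kif13b, Kifc3, Dync2h1 and Dync1i2 were also lower in the authors' deposited table, Kif1c and Dctn2 higher, and Kif1b, Kif13a, Kifc5b, Klc1 and Dctn1 did not pass there. Over all genes 13.7% were lower and 13.2% higher in the double, and of the 48 motor genes 14 were lower and 5 higher. The 2 measures come from the same libraries, and a link between them was not tested. Kif13a was higher in both level and 105-nt exon under Fubp1 siRNA.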

How the data were processed

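RNA of N2A cells from 5 groups (11 libraries) was analysed from deposited tables. The members, lists and tests were chosen with earlier results of these data known. Groups and letters came from the sample descriptions, since both Fubp1 titles end in A.

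An event table of the vast-tools kind, deposited by the authors with no version stated, holds PSI in percent and a quality text with corrected reads for inclusion and exclusion in each library. Recomputing PSI from those reads came within 0.05 points of the deposited percent. Another table by the authors holds group PSI (treated as a score) and marks each event as called or not. The expression table deposited by the authors holds RPKM per group with log2 fold change, p-value and FDR. The submitters' processing notes name mm10, Salmon 0.14.1 and edgeR. No source used here says how replicates were combined.

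Of 401633 entries, 37194 for the first of several alternative sites were left out. Events with 10 or more reads in every library and a mean PSI from 1 to 99 were fitted in limma 3.58.1 (R 4.3.3) on the log2 odds of inclusion, with 0.5 added to the reads, weights from their binomial variance and a prior variance trended on reads. All 11 libraries shared 1 estimate of spread, in 7 comparisons. The fit was also run on simulated reads, in which only events of intermediate inclusion were changed and no library set effect was added. That run does not cover events that start near full or absent inclusion. Reads carry no molecular identifiers, so depth covers counting error only. Expression could not be refitted from 1 value per group.

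Coordinates in the event table do not follow GRCm38 throughout, and no source used here names their build. Exons were matched to GENCODE vM21 (GRCm38) by their length and that of at least 1 flanking intron, and the printed coordinates are those of the match. In each knockdown the rule named the 8 called events with the largest difference per direction. The remaining called events, and Kif11, Kif18b and Kif22 where they are given beside their class, were added after their values were seen. For levels the rule named up to 6 genes per class and direction at FDR under 0.05 and 1 RPKM, and 3 per direction of the other lists. Alternatives tried were no weights, another variance trend, 1 added to reads, 20 reads, no PSI filter, other minimum differences, a library set term, a replicate block and leaving out each library. Differences within the library sets were added after seeing the data.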

Additional observations from a re-analysis of the deposited data

Results flagged for a closer look

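The effect of Khsrp siRNA differed with and without Fubp1 siRNA for 2 motor gene events, by the test of departure from additivity (limma, Benjamini-Hochberg over all tested events). That is 0.583% of the tested motor gene events, near the 0.469% of all tested events. For the 21-nt microexon of Dctn4 the departure was -28.3 points (adjusted p = 0.00519). PSI was higher than siNT in both libraries of each single knockdown and overlapped siNT in the double. For the 60-nt exon of Dync1i2 the departure was -16.0 points (adjusted p = 0.0174). PSI in the double was 4.9 and 5.3%, below both Khsrp libraries (21.4 and 18.2%), while Fubp1 libraries overlapped siNT. Both calls were lost without Khsrp A and with no filter on mean PSI. That of Dync1i2 was also lost without either double library, and that of Dctn4 without read weights.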

How the results depend on the processing

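Counts are of motor gene events called. Counts with no share of all tested events beside them are not compared with other genes. Without read weights they were 0 for Fubp1, Khsrp and Rbm38 siRNA (0.123, 0 and 0.00665% of all tested events). They were 8 for the double against Fubp1 siRNA (1.27%), 15 for the double against Khsrp siRNA (3.05%) and 1 for additivity (0.0382%). At an unadjusted limma p under 0.05 the 3 single knockdowns had 57, 27 and 36, beside 6631, 5277 and 5374 of all 60137 tested events. With a term for the library set they were 1 (Khsrp), 20 (double), 2 (double against Fubp1) and 4 (additivity). With no filter on mean PSI they were 1 (Khsrp), 14 (double against Fubp1), 16 (double against Khsrp) and 0 (additivity). Without a minimum difference Fubp1 siRNA had 7 (2.7% of all tested events). With 15 points Fubp1 siRNA had 2 (0.792% of all tested events) and the double against Khsrp siRNA had 18 (3.87%). Leaving out each library in turn gave 2 to 5 (Fubp1), 0 to 5 (Khsrp), 29 to 40 (double), 2 to 5 (Rbm38), 14 to 25 (double against Fubp1), 13 to 29 (double against Khsrp) and 0 to 4 (additivity).

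The direction of 1 call was reversed: the Dctn1 15-nt microexon in the double against Fubp1 siRNA had a log2 odds difference of 0.09 with the library set term, against -1.16 (-18.2 points) without it, and the cause was not tested. Of 1855 values of the 104 calls under the alternatives, 1551 kept direction and side of the threshold and 303 kept only the direction.

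The replicate letters did not pair the samples, since A minus B differences correlated between -0.062 and 0.058 between groups. A replicate block gave 5 events for Khsrp siRNA, 5 for Rbm38 siRNA and 4 for additivity. With it 101 of the 104 calls kept the direction and a limma adjusted p under 0.05. Depth limits the events of Dync2h1, Kif1c, Kifc3 and Kif24, with as few as 10, 17, 13 and 25 reads in a library.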
